A study of Mus musculus with 8 samples.

Results

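Transcripts of 10 genes of the NOD-like receptor and inflammasome pathways were followed in Kupffer cells, the macrophages that reside in the liver, early in experimental sepsis. The genes were Nlrp3, Nlrc4, Aim2, Pycard, Casp1, Casp4, Gsdmd, Nod1, Nod2 and Ripk2. They were chosen by name, as the rows of the deposited count table whose Ensembl mouse gene ID carries one of these symbols, and all 10 were found among 55414 genes. The cells were sorted by flow cytometry (FACS) from livers of wild-type (WT) C57BL/6J mice, 2 h after surgery. One group of animals had caecal ligation and puncture (CLP), which lets gut bacteria out into the abdomen, and the control animals underwent sham surgery (Sham), with 4 libraries in each group. The labels give neither the age of the mice nor the sort gate. Nor do they say whether libraries came from different mice, so p-values here measure only the spread between these samples, which may be technical.

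NOD-like receptors are cytosolic sensors of microbial products and of cell damage. NLRP3, NLRC4 and the DNA sensor AIM2 build inflammasomes, in which the adaptor ASC, encoded by Pycard, brings caspase-1 together so that it cuts the precursors of IL-1β and IL-18 and the pore protein gasdermin D. Caspase-11, the product of mouse Casp4, binds bacterial lipopolysaccharide in the cytosol and cuts gasdermin D directly. NOD1 and NOD2 recognise fragments of bacterial cell wall and signal through the kinase RIPK2 to NF-kB. Kupffer cells line the liver sinusoids and meet gut bacteria that arrive in portal blood.

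Promoter sequences of 8 of the 10 genes were taken from a table of RefSeq entries (GRCm38.p6), and those of Gsdmd and Ripk2 were not used here. The submitters' processing notes name the later assembly mm39, so these coordinates belong to the promoter table and not to the counts. Below are 250 bases before the annotated start of 4 of them, each on the plus strand. Casp4 and Casp1 are shown because they are related caspases of the same locus, of which 1 rose and the other did not pass the test. Nlrp3 and Nod2 are shown as the receptors with the largest rises. Capitals mark matches to the NF-kB consensus motif, searched on both strands with overlapping matches counted.
Casp4 (chr9:5308599-5308848): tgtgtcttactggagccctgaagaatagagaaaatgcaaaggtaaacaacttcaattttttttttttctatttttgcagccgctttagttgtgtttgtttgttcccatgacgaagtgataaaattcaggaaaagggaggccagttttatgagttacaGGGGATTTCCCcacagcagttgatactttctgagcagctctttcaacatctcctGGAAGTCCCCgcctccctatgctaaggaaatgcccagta
Casp1 (chr9:5298267-5298516): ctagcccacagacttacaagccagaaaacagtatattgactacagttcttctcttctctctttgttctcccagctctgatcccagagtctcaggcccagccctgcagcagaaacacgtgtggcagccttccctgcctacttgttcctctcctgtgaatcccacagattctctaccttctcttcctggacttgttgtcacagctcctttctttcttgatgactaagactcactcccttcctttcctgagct
Nlrp3 (chr11:59541319-59541568): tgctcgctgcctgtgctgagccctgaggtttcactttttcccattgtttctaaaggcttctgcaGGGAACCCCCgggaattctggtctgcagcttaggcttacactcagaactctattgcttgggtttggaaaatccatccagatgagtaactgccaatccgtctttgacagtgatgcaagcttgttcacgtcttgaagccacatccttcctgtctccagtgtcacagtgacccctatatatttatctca
Nod2 (chr8:88647097-88647346): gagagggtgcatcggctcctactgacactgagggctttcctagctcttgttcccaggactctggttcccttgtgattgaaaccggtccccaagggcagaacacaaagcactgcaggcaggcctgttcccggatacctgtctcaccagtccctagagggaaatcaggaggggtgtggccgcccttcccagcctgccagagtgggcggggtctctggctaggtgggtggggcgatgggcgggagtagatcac
At the first of 2 annotated starts, shown here, the Casp4 window held 4 matches in 2 separate blocks, the nearer of which ended 30 bases before the start. The second of 2 annotated starts of Nlrp3 had a single block, read on both strands, and its other start had none. No match lay in the windows of Casp1, Nod2, Nlrc4, Aim2, Pycard or either start of Nod1. Of all 32851 promoter windows of the same length, 7.25% held a match. The AP-1 motif TGANTCA, searched the same way, was absent from all of the windows of these genes and present in 6.75% of all windows. The motif GAGGAAG, a core bound by the macrophage factor PU.1, lay in windows of Nlrp3 (at the first start), Aim2 and Pycard, against 10.6% of all windows. These are matches of letters only, and no binding was measured.

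Each library held 23311897 to 28724875 counts, and the 10 genes had between 183 and 42112 counts in each library. On the first principal component, with 76.7% of the variance, the CLP libraries were separated from the Sham libraries. On the second component (9.99%) CLP replicate 1 was the library that stood apart. Values below are CPM (a library's counts for a gene over its total count) scaled by the trimmed mean of M-values (TMM). Changes are log2 fold changes of CLP over Sham, tested with edgeR's quasi-likelihood test and called at an adjusted p of 0.05 over 14655 genes. In bulk RNA, fewer cells of a type and less RNA per cell cannot be told apart.

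Markers of the labelled cell type were present. All 12 Kupffer cell markers were detected, with summed levels of 35399 to 45424 CPM in CLP cells and 27532 to 35496 CPM in Sham cells, and 4 of them were called higher in CLP. Other cell types were also represented. Of 13 neutrophil markers 9 were tested and all 9 were higher in CLP. The 13 summed to 239 to 581 CPM in CLP and 101 to 139 CPM in Sham cells. Csf3r made up most of this sum, with means of 246 CPM in CLP and 99.1 CPM in Sham cells. S100a8 and S100a9 had means of 51.9 and 62.2 CPM in CLP and 1.23 and 1.32 CPM in Sham cells. Among the neutrophil markers not tested, Ly6g and Camp were at 0 in every Sham library and Elane was at 0 in every CLP library. Mpo was close to 0 in both groups (means of 0.043 CPM in CLP and 0.032 CPM in Sham cells). Platelet markers rose in 4 of 4 tested, with summed levels of 118 to 191 CPM in CLP cells and 15.1 to 27.8 CPM in Sham cells, and Gp1bb was at 0 in every library. B cell markers were higher in 5 and lower in 1 of 6 (summed 19.3 to 30.8 CPM in CLP, 8.58 to 13.9 CPM in Sham cells). Markers called higher were 1 of 4 tested for monocytes and 4 of 7 for liver endothelial cells. For hepatocytes they were 1 of 7 and for stellate cells 2 of 5, while 1 of 3 for dendritic cells was lower. Outside the Kupffer cell markers, the largest sums were those of hepatocyte and liver endothelial cell markers. Hepatocyte markers summed to 2752 to 3687 CPM in CLP and 2102 to 2881 CPM in Sham cells. Endothelial markers summed to 2303 to 2814 CPM in CLP and 1589 to 2013 CPM in Sham cells. Cdh5 made up most of this sum, with means of 1914 CPM in CLP and 1277 CPM in Sham cells. Stab2, the next in level, had means of 293 and 302 CPM and was not called. None of 8 T and NK cell markers had enough counts to be tested (summed 1.78 to 4.29 CPM in CLP, 0.58 to 1.22 CPM in Sham cells). The part of these cells in the changes below was not tested.

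After CLP, Kupffer cells held more transcripts of the receptors Nlrp3, Nlrc4 and Nod2, of the NOD kinase Ripk2 and of the lipopolysaccharide-binding caspase Casp4, by 3.61-fold to 7.24-fold. Transcripts of the DNA sensor Aim2 were 2.25-fold lower and those of the adaptor Pycard 2.06-fold lower. Casp1, Gsdmd and Nod1 did not pass the test. In all, 7 of the 10 genes were called, 5 higher and 2 lower, where 54.3% of all genes tested were called, 24.9% higher and 29.5% lower. The median log2 fold change was 0.93 over the 10 genes and -0.04 over all genes tested. None of the 10 lay near 0.93, which falls in a gap between Casp1 (0.00) and Nlrc4 (1.85). No CLP library reached into the range of the Sham libraries for 7 of the 10, 5 of them higher and 2 lower. Over all genes tested that held for 49.5%, of which 22.1% (of all tested) were higher and 27.3% lower.

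**Figure D1:**
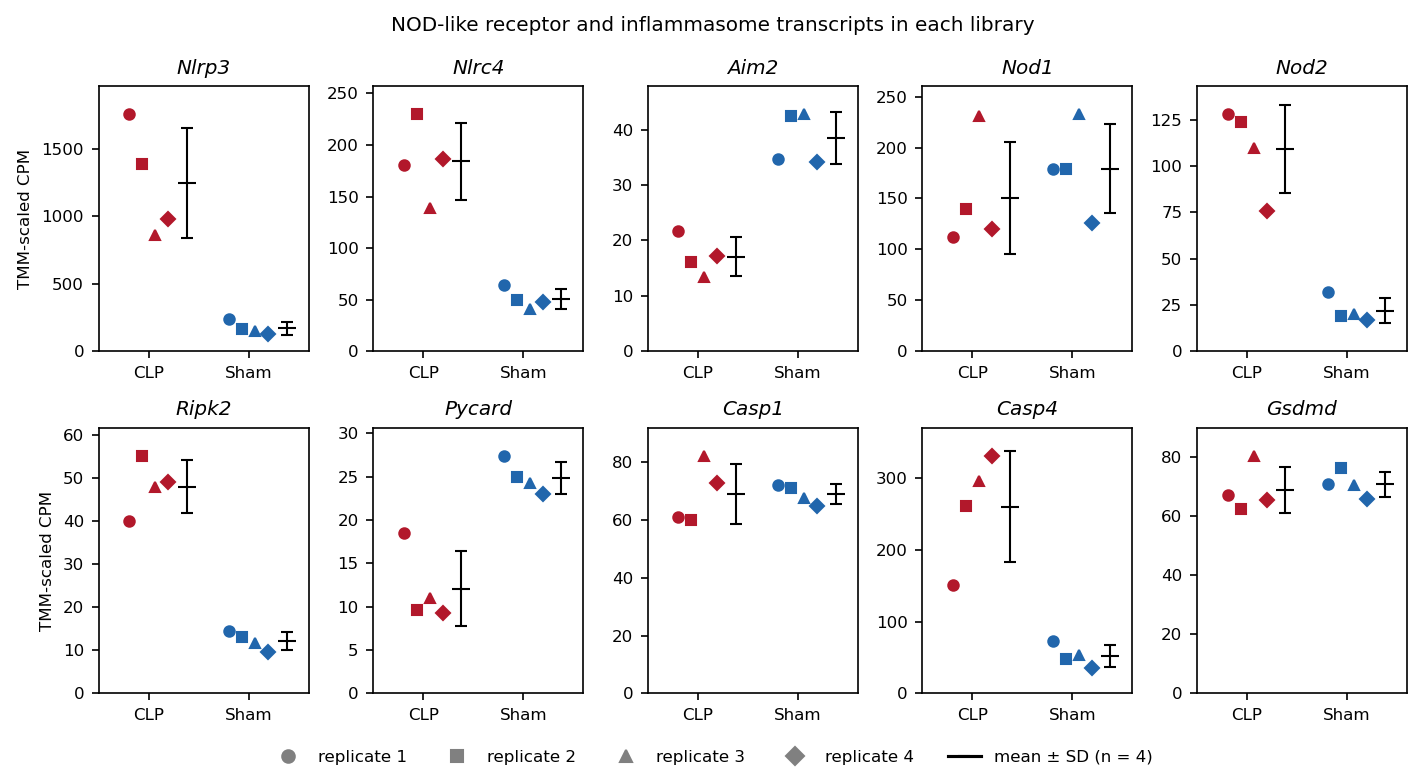
TMM-scaled CPM (linear axes from 0) of the 10 transcripts in each library, with CLP in red on the left and Sham in blue on the right of each panel; symbols give the replicate number, and black bars the mean and SD of 4 libraries. Nlrp3, Nlrc4, Nod2, Ripk2 and Casp4 were higher in every CLP library than in any Sham library, Aim2 and Pycard were lower in every CLP library, and Nod1, Casp1 and Gsdmd overlapped.

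Among the inflammasome sensors, Nlrp3 (ENSMUSG00000032691, chromosome 11), which responds to potassium efflux and membrane damage, changed most. It stood at 1753, 1389, 858 and 976 CPM in CLP replicates 1 to 4, against 239, 165, 154 and 129 CPM in Sham cells replicates 1 to 4. The groups were far apart, and within each group the library numbered 1 was the highest. The log2 fold change was 2.86 ± 0.27 (SE; adjusted p by edgeR = 1.5e-05). Without CLP replicate 1 it was 2.65, the lowest of the fits that left out 1 library. Summed neutrophil markers were at 239, 356, 581 and 556 CPM in CLP replicates 1 to 4, against 139, 114, 135 and 101 CPM in Sham cells replicates 1 to 4. Summed platelet markers were at 186, 182, 118 and 191 CPM in CLP, against 27.8, 17.2, 15.1 and 22.9 CPM in Sham cells. Both sums were higher in every CLP library than in any Sham library, and their part in the Nlrp3 values was not tested.

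Nlrc4 (ENSMUSG00000039193, chromosome 17), which is activated by bacterial flagellin and secretion system proteins, had 181, 229.6, 139 and 186 CPM in CLP cells and 64.8, 49.4, 41.4 and 48.4 CPM in Sham cells. Every CLP library was at least 139 CPM and no Sham library exceeded 64.8 CPM. Its log2 fold change was 1.85 ± 0.18 (adjusted p by edgeR = 1.7e-05). Aim2 (ENSMUSG00000037860, chromosome 1), a sensor of cytosolic DNA and not itself a NOD-like receptor, went the other way. It was at 21.8, 16.1, 13.4 and 17.1 CPM in CLP cells and at 34.8, 42.5, 42.7 and 34.2 CPM in Sham cells, with no overlap. The log2 fold change was -1.17 ± 0.16 (adjusted p by edgeR = 1.3e-04).

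The adaptor Pycard (ENSMUSG00000030793, chromosome 7) fell as well. Its levels were 18.4, 9.58, 10.99 and 9.22 CPM in CLP, against 27.3, 24.9, 24.2 and 22.9 CPM in Sham cells. The groups did not overlap, but CLP replicate 1 lay well above the other CLP libraries. The log2 fold change was -1.04 ± 0.21 (adjusted p by edgeR = 0.0017), and -1.32 without CLP replicate 1. In the GENCODE M21 annotation a transcript on the opposite strand, Gm45205, overlaps 485 of the 3800 exonic bases of Pycard. That transcript had 3 to 9 counts per CLP library and 6 to 13 per Sham library. Pycard had 183 to 443 counts in CLP and 722 to 894 in Sham. The strand setting of the counting is not given, so how reads in the overlap were counted is not known.

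The caspases diverged. Casp4 (ENSMUSG00000033538, chromosome 9) was at 152, 261, 296 and 330.0 CPM in CLP cells and at 72.3, 48.3, 53.2 and 34.8 CPM in Sham cells. All CLP libraries were higher than all Sham libraries, with CLP replicate 1 the lowest of its group and Sham replicate 1 the highest of its own. Its log2 fold change was 2.32 ± 0.27 (adjusted p by edgeR = 5.6e-05), and without CLP replicate 1 it was 2.50. CLP replicate 1 was also the lowest in summed neutrophil markers (239 CPM), whose part in the Casp4 values was not tested, and it was the highest CLP library for Nlrp3. Casp1 (ENSMUSG00000025888, chromosome 9), the effector enzyme of the inflammasome, had 61.1, 59.9, 81.9 and 72.7 CPM in CLP cells and 72.1, 71.0, 67.5 and 64.7 CPM in Sham cells. The groups overlapped, and the log2 fold change was 0.00 ± 0.12 (adjusted p by edgeR = 0.994).

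Gsdmd (ENSMUSG00000022575, chromosome 15), whose cut product forms the membrane pore, was at 67.4, 62.5, 80.3 and 65.6 CPM in CLP, against 70.9, 76.3, 70.8 and 65.9 CPM in Sham cells. The groups overlapped here too (log2 fold change -0.04 ± 0.11, adjusted p by edgeR = 0.758). With scaling by total counts in place of TMM, Casp1 and Gsdmd were both called lower, with log2 fold changes of -0.55 and -0.59 (adjusted p by edgeR = 0.00215 and 7.3e-04). That scaling moved the median of all genes tested to -0.60 and made 17.1% of all calls upward, where it was 45.8% with TMM. Both genes thus lay close to the median of all genes.

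On the NOD side, Nod2 (ENSMUSG00000055994, chromosome 8), the receptor for muramyl dipeptide, rose. It had 128, 124, 109.6 and 75.8 CPM in CLP cells and 32.1, 19.1, 20.02 and 16.8 CPM in Sham cells. CLP replicate 4 was the lowest of the CLP libraries but lay well above the highest Sham library. The log2 fold change was 2.31 ± 0.23 (adjusted p by edgeR = 2.0e-05). Ripk2 (ENSMUSG00000041135, chromosome 4) stood at 40.1, 55.0, 47.9 and 49.0 CPM in CLP, against 14.6, 12.98, 11.7 and 9.65 CPM in Sham cells. It had the smallest relative spread of the 10 genes in CLP except for Gsdmd, with an SD of 12.8% of the mean in CLP and 17.0% in Sham. Its log2 fold change was 1.97 ± 0.15 (adjusted p by edgeR = 5.1e-06).

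Nod1 (ENSMUSG00000038058, chromosome 6), which recognises a peptidoglycan fragment found mainly in Gram-negative bacteria, did not rise with Nod2. It was at 112, 139, 231 and 120.2 CPM in CLP cells and at 179, 179, 232 and 126 CPM in Sham cells. In both groups replicate 3 was the highest library, and the groups overlapped. The log2 fold change was -0.25 ± 0.25 (adjusted p by edgeR = 0.411). Nod1 was called lower without CLP replicate 3 (-0.53, adjusted p by edgeR = 0.0476) and with total-count scaling (-0.81, adjusted p by edgeR = 0.0151).

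**Figure D2:**
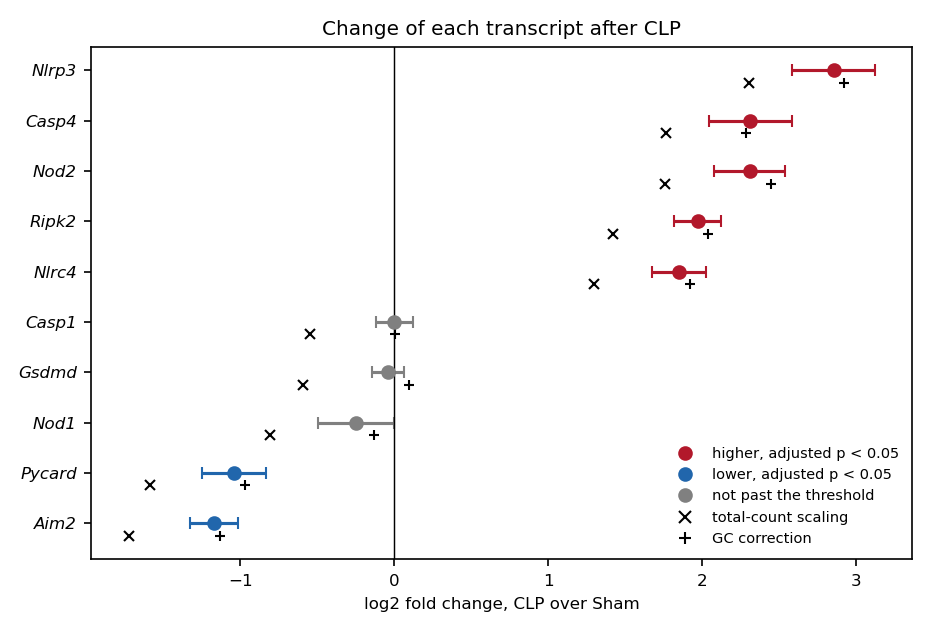
Log2 fold changes of CLP over Sham (horizontal axis) for the 10 transcripts, with circles and bars for the estimate and its SE in the TMM-scaled fit; red is called higher, blue called lower and grey not past the threshold. Crosses give the same fit with total-count scaling and plus signs the fit corrected for GC content: Nlrp3, Casp4, Nod2, Ripk2 and Nlrc4 stay to the right of 1 and Aim2 and Pycard left of 0 under all 3, while total-count scaling moves Casp1 to -0.55 and Gsdmd to -0.59.

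Ratios of 2 transcripts within a library do not depend on how libraries are scaled. The number of Nlrp3 counts per Pycard count, sensor to adaptor, was 95.0, 145, 77.9 and 106 in CLP replicates 1 to 4 and 8.75, 6.61, 6.38 and 5.61 in Sham replicates 1 to 4. Every CLP library was thus well above every Sham library, a mean log2 difference of 3.93. Nod2 counts per Nod1 count were 1.14, 0.889, 0.475 and 0.631 in CLP, against 0.18, 0.107, 0.0862 and 0.134 in Sham. For Casp4 per Casp1 they were 2.48, 4.36, 3.62 and 4.54 in CLP and 1.00, 0.68, 0.788 and 0.538 in Sham. None of these 3 ratios overlapped between the groups. Each sets a gene called higher over a gene that was called lower or did not pass. The gaps thus restate the changes given above and add no separate evidence. The ratios of 2 other pairs overlapped between the groups: Gsdmd per Casp1 was 0.902 to 1.10 in CLP and 0.983 to 1.07 in Sham, and Aim2 per Pycard was 1.18 to 1.85 in CLP and 1.27 to 1.76 in Sham. These ratios are of counts, not per length, and were not tested.

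**Figure D3:**
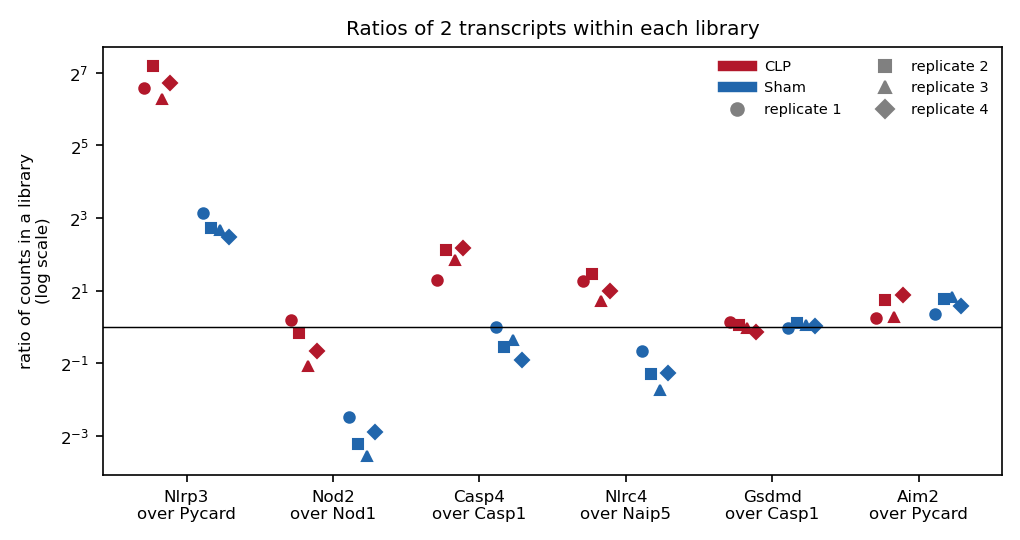
Ratio of the counts of 2 transcripts in the same library (vertical axis, log scale; 0.5 was added to each count) for 6 pairs, with CLP in red on the left and Sham in blue on the right of each pair and symbols for the replicate number. The first 4 pairs have no overlap between the groups, with Nlrp3 over Pycard at 77.9 to 145 in CLP and 5.61 to 8.75 in Sham, and the last 2 pairs overlap.

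Levels can be compared between genes only per length, here TMM-scaled CPM per kilobase of the union of annotated exons. In CLP the highest level was that of Nlrp3, at 307 ± 101 CPM per kilobase (SD, n = 4), with every library above all libraries of Casp4, the next at 70.0 ± 20.9. Casp4, Casp1 (46.0 ± 6.94), Nlrc4 (38.3 ± 7.69), Nod1 (29.6 ± 10.8) and Gsdmd (29.0 ± 3.30) followed, and each of these overlapped its neighbour. Next were Nod2 (21.8 ± 4.71) and Ripk2 (17.0 ± 2.18), which overlapped, and then, with a gap, Aim2 (4.88 ± 1.00) and Pycard (3.17 ± 1.14). In Sham the same quantity was 46.0 ± 2.26 for Casp1, 42.3 ± 11.7 for Nlrp3, 35.3 ± 8.58 for Nod1 and 29.9 ± 1.79 for Gsdmd, each overlapping the next. Lower came Casp4 (14.1 ± 4.19), Aim2 (11.01 ± 1.34) and Nlrc4 (10.6 ± 2.05), again overlapping in that order. Pycard (6.54 ± 0.48), Nod2 (4.39 ± 1.37) and Ripk2 (4.34 ± 0.74) were the lowest. The order depended on the length used: per kilobase of the mean annotated transcript, Nod1 and Gsdmd were highest in Sham (means 101 and 83.5), and in CLP Nlrp3 (432 ± 142) was still highest but overlapped Casp4 (249 ± 74.2).

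Of 17 other NOD-like receptor genes, 13 were tested and 4 had 0 counts in every library. Among those tested 3 were called higher and 6 lower (median log2 fold change -0.51). Over all genes tested 24.9% were higher and 29.5% lower, with a median of -0.04, and the counts of this list and of the 4 lists below stand beside those shares without a test. The NAIP proteins bind bacterial ligands and hand them on to NLRC4. Naip1, the receptor for a secretion system needle protein, fell to 13.4 ± 6.34 CPM in CLP, against 52.4 ± 8.91 CPM in Sham cells (log2 fold change -1.96 ± 0.29, adjusted p by edgeR = 2.3e-04). The flagellin receptors Naip5 and Naip6, named after their values were seen, fell as well, with log2 fold changes of -0.51 ± 0.12 and -0.85 ± 0.14 (adjusted p by edgeR = 0.0038 and 4.4e-04). Naip2, the most abundant gene of the list, did not pass (133 ± 11.2 CPM in CLP, 164 ± 20.5 CPM in Sham cells, adjusted p by edgeR = 0.055). Nlrc4 counts per Naip5 count were 2.43, 2.75, 1.66 and 1.98 in CLP and 0.628, 0.408, 0.301 and 0.413 in Sham, without overlap. This ratio restates the rise of Nlrc4 and the fall of Naip5. Naip genes are near-identical copies, and how the counting divided reads between them is not known.

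The mitochondrial family member Nlrx1 fell to 9.23 ± 1.80 CPM in CLP, against 24.2 ± 1.10 CPM in Sham cells (log2 fold change -1.39 ± 0.15, adjusted p by edgeR = 2.7e-05). Nlrp1a, another inflammasome sensor of rodents with close copies, had a log2 fold change of -0.87 ± 0.16 (adjusted p by edgeR = 9.7e-04). The 3 genes called higher were close to the threshold. These were Ciita, the activator of MHC class II genes (0.55 ± 0.19, adjusted p by edgeR = 0.034), and, named after their values were seen, Nlrp12 (0.74, adjusted p by edgeR = 0.0465) and Nlrc3 (0.98, adjusted p by edgeR = 0.0485). Nlrc3 was under 1 CPM in both groups. No gene of the list was called higher without CLP replicate 3 or without Sham replicate 1, and 0 to 4 were when any single library was left out.

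Among 31 tested triggers and regulators of inflammasomes, 14 were higher and 5 lower (median log2 fold change 0.35). The split depended on the scaling, since 11 were higher and 14 lower with total-count scaling. Gbp5, a guanylate-binding protein that promotes inflammasome assembly on bacteria, was at 1015 ± 282 CPM in CLP cells and 162 ± 84.4 CPM in Sham cells (2.65 ± 0.34, adjusted p by edgeR = 1.1e-04). Mefv, encoding the inflammasome sensor pyrin, stood at 625 ± 145 CPM in CLP cells and 132 ± 65.3 CPM in Sham cells (2.24 ± 0.31, adjusted p by edgeR = 1.5e-04). The phosphatase subunit Ppp2ca rose by 1.73 ± 0.13 on the log2 scale, and Cybb, the most abundant of the list and the core of the phagocyte NADPH oxidase, by 0.99 ± 0.17. The channel genes Kcnk6 and P2rx7 fell. Kcnk6, a potassium channel, was at 28.8 ± 14.8 CPM in CLP cells and 188 ± 21.03 CPM in Sham cells, and P2rx7, the ATP-gated channel, at 38.1 ± 1.81 CPM in CLP cells and 91.8 ± 4.89 CPM in Sham cells. Their log2 fold changes were -2.70 ± 0.29 and -1.27 ± 0.09 (adjusted p by edgeR = 3.2e-05 and 4.0e-06). Txnip, a thioredoxin-binding protein that can bind NLRP3, fell to 147 ± 36.3 CPM in CLP, against 619 ± 90.6 CPM in Sham cells (-2.08 ± 0.19, adjusted p by edgeR = 1.3e-05).

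In the list of inflammasome outputs and pore biology, 11 of 15 genes tested were higher and 1 was lower (median log2 fold change 0.64). Without CLP replicate 1, 3 were lower. The list also holds inhibitors such as Il1rn, so it is not a count of inflammasome products. Il1b, the most abundant gene of the list, rose to 3026 ± 1672 CPM in CLP, against 283 ± 136 CPM in Sham cells. Il1a rose by 4.59 ± 0.32 on the log2 scale. Il18, whose precursor caspase-1 cuts as it does that of Il1b, had a log2 fold change of 1.05 ± 0.18 (adjusted p by edgeR = 6.2e-04, named after its value was seen). Il1rn, the IL-1 receptor antagonist, was at 3104 ± 981 CPM in CLP cells and 61.9 ± 27.2 CPM in Sham cells (5.65 ± 0.38, adjusted p by edgeR = 3.4e-06). The alarmin Il33 had 15.0 ± 5.42 CPM in CLP cells and 0.217 ± 0.224 CPM in Sham cells, a log2 fold change of 6.07 ± 0.51, or 7.11 without Sham replicate 1. Ninj1, which ruptures the membrane of dying cells, was called higher (0.64 ± 0.13, adjusted p by edgeR = 0.0023; named after its value was seen), but with total-count scaling its value was 0.09 and did not pass.

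Of 30 genes in NOD1 and NOD2 signalling 14 were higher and 5 lower (8 lower without CLP replicate 1), with a median log2 fold change of 0.23. Here too the split depended on the scaling, with 8 higher and 13 lower under total-count scaling. The largest rises were in Tnf, a target of the pathway, and in the feedback inhibitors Tnfaip3 (A20), the most abundant of the list, and Tnip1 (ABIN-1), at 4.73 ± 0.43, 4.61 ± 0.35 and 2.92 ± 0.29 on the log2 scale. The ubiquitin ligases Birc2 and Birc3, which modify RIPK2 and were named after their values were seen, rose by 2.12 ± 0.23 and 1.85 ± 0.18. Other ubiquitin ligases of the list, also named after their values were seen, did not all rise. Xiap did not pass (0.12 ± 0.10, adjusted p by edgeR = 0.345) and Itch was lower (-1.06 ± 0.21, adjusted p by edgeR = 0.0019). Tab1, a partner of the kinase TAK1, fell to 2.07 ± 0.502 CPM in CLP, against 11.7 ± 1.08 CPM in Sham cells (-2.48 ± 0.20, adjusted p by edgeR = 6.4e-06). Card6, which binds RIPK2, and Mapk14, the p38α kinase, had log2 fold changes of -1.56 ± 0.25 and -1.41 ± 0.12 (adjusted p by edgeR = 4.2e-04 and 8.5e-06).

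In the list for entry of cell wall fragments (muropeptides), 3 of 9 genes tested were higher and 3 lower, with a median of -0.01. This is near the shares and the median of all genes tested. Not every gene of the list carries such fragments, Nagpa being 1 that does not. The endolysosomal transporter Slc15a3 was at 1494 ± 43.1 CPM in CLP cells and 631 ± 90.0 CPM in Sham cells (1.24 ± 0.13, adjusted p by edgeR = 2.4e-05), whereas its relative Slc15a4 had a log2 fold change of -0.83 ± 0.14 (adjusted p by edgeR = 6.9e-04). Slc46a3, a lysosomal transporter, fell by 1.17 on the log2 scale (adjusted p by edgeR = 0.0021) and Nagpa, an enzyme of lysosomal sorting, by 0.37 (adjusted p by edgeR = 0.0086); with the GC correction Nagpa was at -0.12 and did not pass (adjusted p by edgeR = 0.330). Lyz2, macrophage lysozyme and the most abundant of the list, was called higher (0.49 ± 0.15, adjusted p by edgeR = 0.015), but its value was -0.06 with total-count scaling. Over the 5 lists, 45 of 98 genes tested were higher and 20 lower, and with total-count scaling 28 were higher and 43 lower.

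**Figure D4:**
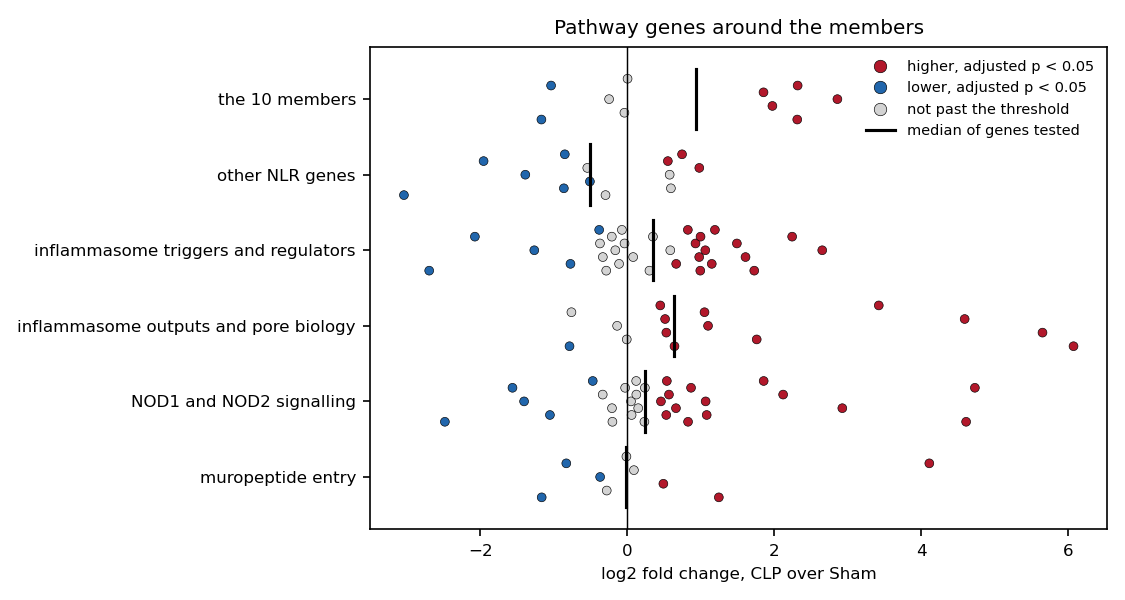
Log2 fold changes of CLP over Sham (horizontal axis) for each tested gene of the 10 members and of the 5 pathway lists (rows; vertical scatter within a row has no meaning), red for called higher, blue for called lower and grey for not past the threshold, with black lines at the list medians. The medians are 0.93 for the 10 members, -0.51 for the other NLR genes, 0.35 for triggers and regulators, 0.64 for outputs, 0.23 for NOD signalling and -0.01 for muropeptide entry.

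Profiles over the 8 libraries were compared by the root mean square difference of mean-centred log2 CPM, among 10116 genes with at least 5 CPM in the higher group. Closest to Nlrp3, the gene with the largest rise of the 10, were Fosl2 (0.199), Nfkbib (0.226) and Itpkb (0.226). Closest to Aim2, with the largest fall, were Phf14 (0.112), Gpr180 (0.113) and Tbc1d8 (0.114). With 2 groups of 4 libraries this likeness is set mainly by the difference between the groups.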

How the data were processed

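RNA was sequenced from sorted Kupffer cells in 4 CLP and 4 Sham libraries. The values deposited by the authors are whole read counts per Ensembl gene, 23311897 to 28724875 per library. Per the submitters' processing notes, the tools were FastQC, STAR 2.7.10b, featureCounts and DESeq2 and the genome build was mm39. Which annotation release was counted, and with which strand setting, the notes do not say. Libraries of 1 group differed by at least 19.5 times the sampling noise (chi-square per degree of freedom), so none was counted as a duplicate.

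Symbols and lengths were taken from GENCODE M21 and promoters from RefSeq, both on GRCm38. After filterByExpr removed low genes, TMM factors were computed and edgeR 4.0.16 in R 4.3.3 was fitted to the counts (robust quasi-likelihood, surgery as the only term), with Benjamini-Hochberg adjustment over 14655 genes. The SE is the absolute log2 fold change over the square root of F. DESeq2 1.42.0 and limma 3.58.1 were alternatives. The fits were also run on simulated counts with a small set of genes changed in random directions. That setting cannot test the scaling of these data, in which 54.3% of genes were called. The members and lists were chosen with earlier results of these data known. List genes named were the 3 largest called rises and falls at 5 CPM or more in the higher group, and the most abundant gene; 1 gene that this rule names is not reported here.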

Additional observations from a re-analysis of the deposited data

Results flagged for a closer look

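No group of any of the 10 genes held a library past Dixon's critical value, though CLP replicate 1 lay above the other CLP libraries for Pycard (18.4 CPM, others 9.22 to 10.99 CPM). Among the other genes named, 8 groups of 4 libraries had 1 library whose distance to the next was past Dixon's critical value for the group's range, which chance gives in about 1 of 20 groups; 94 groups were looked at. CLP replicate 1 was the highest of its group for Kcnk6 (50.9 CPM, against 20.5 to 22.8 CPM in the other CLP libraries) and Ninj1 (603 CPM, others 484 to 492 CPM), and the lowest for Birc2 (259 CPM, others 352 to 370.1 CPM). Sham replicate 1 was the highest of its group for Il1b (485 CPM, others 194 to 241 CPM), Tnfaip3 (364 CPM, others 128 to 167 CPM), Tnip1 (83.0 CPM, others 34.9 to 42.7 CPM) and Il33 (0.55 CPM, others 0.061 to 0.134 CPM). Sham replicate 3 was the highest of its group for Casp8 (100.5 CPM, others 86.9 to 87.6 CPM).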

How the results depend on the processing

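The rises of Nlrp3, Nlrc4, Nod2, Ripk2 and Casp4 and the falls of Aim2 and Pycard kept their direction and their call in all 15 alternatives, and also without CLP replicate 1 and Sham replicate 1 together, a setting chosen after the data were seen. With total-count scaling 5 of the 10 genes were called lower in place of 2, 1715 genes were higher and 8292 lower over the whole table in place of 3644 and 4319, and 28 pathway list genes were higher and 43 lower in place of 45 and 20. Casp1, whose log2 fold change was 0.00, turned negative with total-count scaling (-0.55), with no low-count filter (-0.0555), with limma voom (-0.00922) and with the replicate block (-0.00946), and ranged from -0.0878 to 0.0679 when 1 library was left out. Gsdmd turned positive with DESeq2 (0.0192), with its size factors in edgeR (0.0191) and with the GC correction (0.0934), and ranged from -0.118 to 0.00823 when 1 library was left out. With total-count scaling Ciita (-0.0045) and Lyz2 (-0.0623) turned negative. The log2 span of levels between the highest and lowest member in Sham was 3.59 per exon union and 4.53 per mean transcript, the length being the only change. Over all genes tested, samples with the same replicate number had deviations from their group means with correlations of 0.172, -0.125, 0.126 and -0.0853. With 4 libraries in each group these values cannot decide whether the numbers pair the samples. A fit with the replicate block called 5 of the 10 genes higher and 2 lower. The TMM factors were 0.801 to 0.837 in CLP libraries and 1.16 to 1.28 in Sham libraries, without overlap, and total-count scaling leaves them out. Why the factors differ between the groups was not tested, nor was the cause of the other shifts. The 10 genes had 183 to 42112 counts per library, and the effect of depth on their precision was not tested.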
